A study of Mus musculus with 4 samples.

Results

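Astrocytes take up the glutamate that neurons release, turn it into glutamine, move water and ions, and are joined into networks by gap junctions. The 10 genes described here mark these cells: Gfap, Aqp4, Slc1a2, Slc1a3, Aldoc, S100b, Gja1, Gjb6, Glul and Sox9. They were taken by gene symbol from the 22328 genes that both deposited tables list, each symbol matched 1 row in each table, and all 10 were found. The study sequenced poly(A)-selected RNA from mouse hippocampus after different choline supply before birth, and from HT22, an immortalised mouse hippocampal cell line labelled as neuronal, after different choline supply in culture. F1m-CON are offspring of dams on a normal diet with 1.1 g/kg choline chloride, and F1m-GCS are offspring of dams whose diet held 5 g/kg between embryonic day 9 and birth. Both groups ate a basal diet after birth, and a behavioural testing age of 2 months is given for both. HT22 cultures received choline chloride for 48 h, at 5 µM in HT22-CON and at 70 µM in HT22-SUP. There was 1 library in each group, which leaves no spread between animals or cultures to set a difference against. The labels do not say whether a hippocampus library comes from 1 animal or from several.

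In the adult brain Slc1a2 (GLT-1) and Slc1a3 (GLAST) carry most glutamate uptake, and Glul, glutamine synthetase, makes glutamine from the glutamate taken up. Gja1 (connexin 43) and Gjb6 (connexin 30) form the gap junctions between astrocytes, and Aqp4 is the water channel of their endfeet on blood vessels. Gfap is the intermediate filament protein of astrocytes, S100b a calcium-binding protein, Aldoc the brain form of the glycolytic enzyme aldolase, and Sox9 a transcription factor of glial fate that other tissues such as cartilage also use.

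Reads in genes ranged from 13192007 to 31175015 per library. The 10 astrocyte genes took 0.589% of these reads in F1m-CON and 0.584% in F1m-GCS, against 0.0437% in HT22-CON and 0.0488% in HT22-SUP. The labels of the tissue libraries were matched by the presence of neuronal, astrocytic and oligodendrocyte markers, none of them at 0. HT22 libraries held little of the neuron markers: 12 of them together had 97.4 CPM (reads scaled to a common library total) in HT22-CON and 218 in HT22-SUP, against 11252 and 11162 in the tissue, while Vim, a filament gene of mesenchymal and immature cells, stood at an RPKM of 1016 and 839. RPKM divides the reads of a gene by its length and by the uniquely mapped reads of the library.

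In the hippocampus the glutamate genes led. Slc1a2 (chr2:102658659-102790784) had the highest level, with an RPKM of 1030.1 in F1m-CON and 1118 in F1m-GCS, and made up 37.8% and 41.6% of all reads of the 10 genes. Glul (chr1:153899944-153909723) followed at 714 and 639.6, and Aldoc (chr11:78322968-78327781) at 557 and 487. Slc1a3 (chr15:8634124-8710764) stood at 367 and 346, S100b (chr10:76253853-76261159) at 357 and 324, and Gfap (chr11:102887336-102900912) at 292 and 279. These 3 lay close together, with the order unchanged between the libraries. Gja1 (chr10:56377300-56390419) had 182 and 176, Aqp4 143 and 167, Gjb6 (chr14:57123303-57133611) 59.5 and 50.6, and Sox9 (chr11:112782224-112787760) 17.97 and 15.8. All 10 were ranked the same way in both tissue libraries, and coordinates are those of the files in mm10.

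This order depends on the length that reads are divided by. The deposited RPKM uses a length that is taken here as the coding length, 1719 bases for Slc1a2. The longest protein-coding transcript of that gene in GENCODE M21 has 11595 bases, 6.75 times as many. For Aqp4 the ratio of the lengths is 5.20 and for S100b 5.32, against 2.05 to 2.77 for the other members and a median of 1.88 over 21096 genes. Per kilobase of the longest transcript, in CPM, Glul led with 361 in F1m-CON and 325 in F1m-GCS, followed by Aldoc with 275 and 241 and by Slc1a2 with 192 and 209.6. The sources used here do not give whether the authors counted reads over whole transcripts or over coding sequence. An uncorrected ratio of 1 gene between libraries does not use a length.

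**Figure D1:**
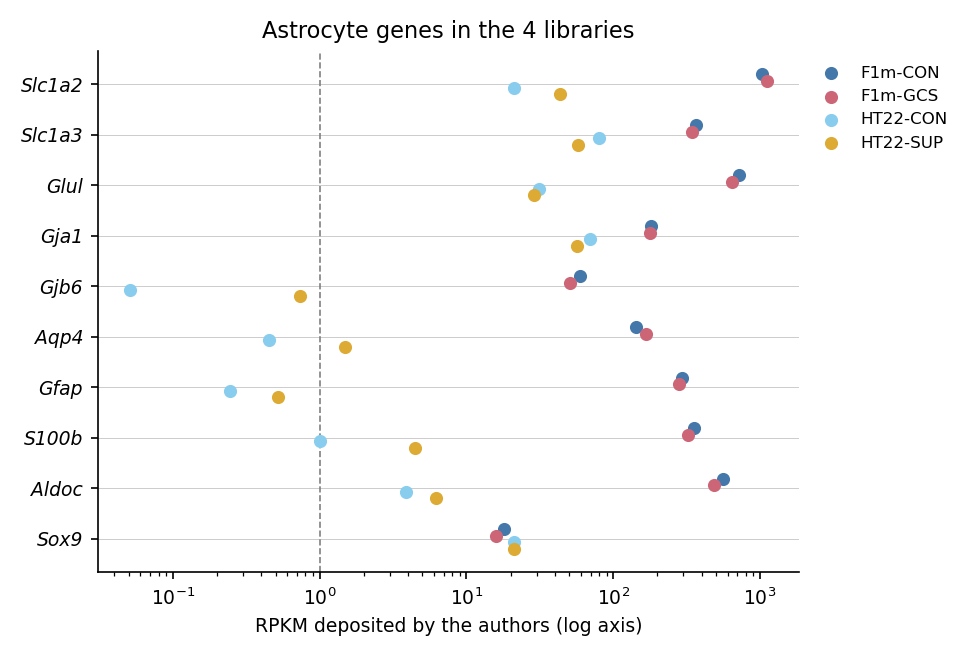
RPKM (log axis) of the 10 astrocyte genes in each of the 4 libraries, 1 point per library; the dashed line marks an RPKM of 1. Tissue libraries (F1m-CON, F1m-GCS) lie together for every gene, while the HT22 libraries span from 0.0506 for Gjb6 to 80.0 for Slc1a3, and Sox9 is the gene whose HT22 points lie above its tissue points.

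Before any correction for length, Slc1a2 was higher and Slc1a3 lower in F1m-GCS; with transcript length and GC taken into account, Slc1a2 had -0.0016 and Slc1a3 -0.07. Slc1a2 had 69493 reads in F1m-CON and 73558 in F1m-GCS, the highest count of the members in both. The log2 ratio of F1m-GCS over F1m-CON was 0.14, with a 95% counting interval of 0.12 to 0.15, a level 9.90% higher. Slc1a3 had 23484 and 21636 reads and a log2 ratio of -0.06 (-0.09 to -0.04). Intervals in brackets here and below are exact intervals of the ratio of the 2 counts. They hold counting error and no variation between animals, and copies of a molecule made by PCR count as separate reads. The RPKM of Slc1a2 was 2.81 times that of Slc1a3 in F1m-CON and 3.23 times in F1m-GCS, a ratio that depends on the length used. Per kilobase of the longest transcript, in CPM, Slc1a2 had 192 and Slc1a3 181 in F1m-CON. In F1m-GCS they had 209.6 and 172. Glul, the enzyme downstream of both, had 31447 and 27478 reads and a log2 ratio of -0.14 (-0.16 to -0.12). Exons of Glul overlap the gene Teddm2 on the opposite strand, and those of Slc1a2 overlap the antisense gene Gm13872. Where counting ignores strand, reads of such partners cannot be told apart, and the sources used here do not give the strand setting.

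Aqp4 was the other member that was higher in F1m-GCS, and without correction it had the largest difference from 0. Corrected for transcript length and GC it had 0.10, smaller in size than Gjb6, Sox9 and Aldoc at -0.16, -0.15 and -0.11. It had 5456 reads in F1m-CON and 6232 in F1m-GCS, a log2 ratio of 0.25 (0.19 to 0.30), or 18.6% more. Aqp4 stood at percentile 89.0 of the 13392 measured genes, those with 50 reads or more in either library. Among 13 other genes of water channels and of the protein complex that anchors Aqp4 in the endfoot, 8 lay above 0 with a median of 0.05. Over all measured genes 48.8% lay above 0. Utrn, which encodes the dystrophin relative utrophin, had 0.21 (0.11 to 0.31). After correction for coding length and GC the median of the 13 was 0.0018 and Utrn had 0.04, against 0.19 for Aqp4. Of the 13, Aqp9, a water and glycerol channel, had 26 and 72 reads and a ratio of 1.45 (0.86 to 2.23), and it reached the minimum of reads only in F1m-GCS, where it was higher. Aqp1, the water channel of the choroid plexus, was more than 1.5-fold lower at -0.79 (-1.02 to -0.58).

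The connexin genes lay below 0. Gjb6 had 1835 and 1523 reads and the lowest ratio of the members, -0.21 (-0.31 to -0.12). Gja1 had 8196 and 7765 reads and -0.02 (-0.07 to 0.02), the only interval of the 10 that held 0. Of 10 further gap junction genes 0 were beyond 1.5-fold. Their median was 0.01, and Gjb2, the astrocytic connexin 26 gene, had -0.08 (-0.31 to 0.15) on 329 and 299 reads.

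The remaining members were also lower in F1m-GCS by small amounts. Aldoc had 23888 and 20360 reads and a log2 ratio of -0.18 (-0.20 to -0.15), while its ubiquitous paralogue Aldoa had -0.04 (-0.07 to -0.02) on 31407 and 29324 reads. Sox9 had 1075 and 920 reads and -0.17 (-0.30 to -0.04). S100b had 3914 and 3462 reads and -0.12 (-0.19 to -0.06). Gfap was nearly level, with 14824 and 13810 reads and -0.05 (-0.08 to -0.01). The filament gene Vim, which reactive and immature astrocytes raise along with Gfap, had -0.23 (-0.33 to -0.13), and Nes, the nestin gene, 0.36 (0.14 to 0.59) on 300 and 371 reads.

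No member reached 1.5-fold in either direction: 0 of 10 were higher by that rule, against 1.80% of all measured genes, and 0 of 10 lower, against 0.904%. Log2 ratios were below 0 for 8 of 10, against 51.2% of measured genes, and above 0 for 2 of 10, against 48.8%. The median was -0.09, against -0.0042 over all of them. The counting interval lay wholly below 0 for 7 of 10, against 18.8%, and wholly above 0 for 2 of 10, against 20.9%. Intervals narrow with depth, and the members' reads ranged from 920 for Sox9 to 73558 for Slc1a2. In bulk tissue, fewer astrocytes and less RNA per astrocyte cannot be told apart.

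Genes with short transcripts had lower ratios in these libraries, and the members were affected unequally. Medians of measured genes went from -0.10 in the shortest of 10 groups by longest transcript to 0.13 in the longest, and from 0.18 to -0.02 from the lowest to the highest GC group. Slc1a2 and Aqp4 have the longest transcripts of the 10, at 11595 and 5054 bases. After subtraction of the median of genes of like transcript length and GC content, a correction added after the data were seen, Slc1a2 had -0.0016 (-0.02 to 0.01) and Aqp4 0.10 (0.04 to 0.15). With coding length in place of transcript length they kept 0.12 and 0.19. Under both corrections the intervals of Aldoc, Gjb6, Glul, Slc1a3 and Sox9 stayed below 0, while those of Gfap, S100b and Gja1 held 0. The smallest margin was that of Sox9, at -0.13 (-0.26 to -0.00062) with coding length.

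**Figure D2:**
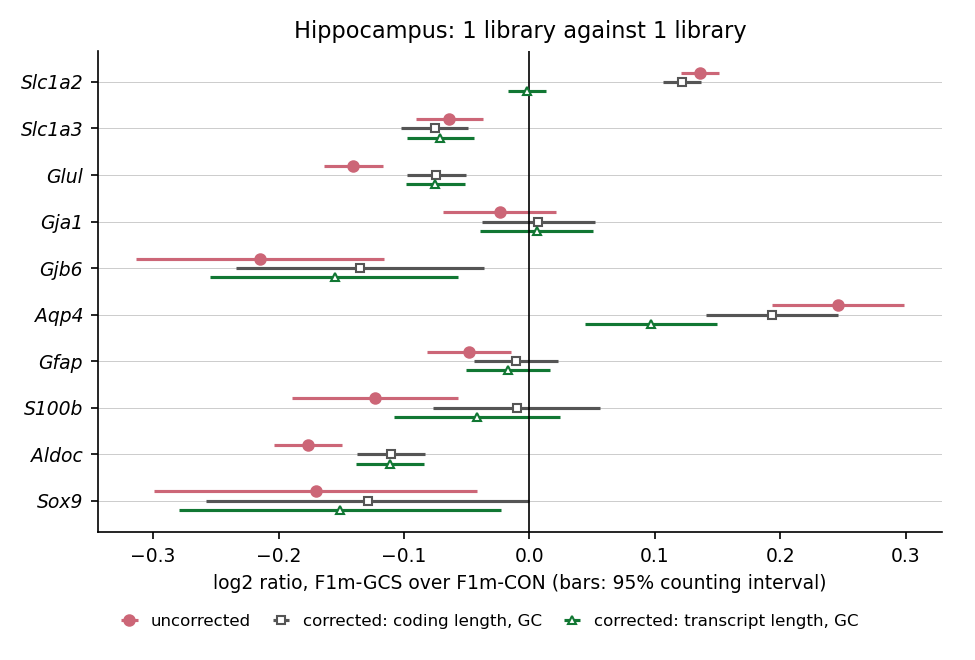
Log2 ratio of F1m-GCS over F1m-CON for each astrocyte gene, 1 library against 1, with 95% counting intervals; filled circles are uncorrected, open squares are corrected for coding length and GC, open triangles for transcript length and GC. Aqp4 stays to the right of 0 in all 3 versions, whereas Slc1a2 moves from 0.14 to -0.0016 with transcript length.

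Other astrocyte markers had like values. Of 40 further marker genes all were measured, and 34 lay below 0, against 51.2% of all measured genes. Their median was -0.10, with 0 beyond 1.5-fold in either direction. Apoe, the lipid carrier, had 34700 and 30807 reads and -0.12 (-0.14 to -0.10), and Slco1c1, a thyroid hormone transporter, -0.19 (-0.27 to -0.11). Nkain4 had -0.24 (-0.38 to -0.11), Phkg1 -0.16 and Cldn10 -0.16. Among the 6 above 0 were Fabp7, a fatty acid-binding protein of immature astrocytes, at 0.40 (0.26 to 0.54), and Dio2, the enzyme that activates thyroid hormone, at 0.24 (0.14 to 0.34). After the correction for coding length and GC the median of the 40 was -0.06 and that of the 10 members was -0.04.

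Of 16 further glial transcription factor genes, 10 lay below 0 and 0 were beyond 1.5-fold. Hes5, a Notch target, had -0.57 (-0.88 to -0.28) on 234 and 151 reads, and Id3 -0.40 (-0.51 to -0.29), while Zbtb20 had 0.56 (0.52 to 0.61). Sox8 and Sox10, the nearest relatives of Sox9, had 0.12 (0.02 to 0.22) and -0.05 (-0.14 to 0.05). Among 35 genes of reactive astrocytes 26 were measured. Of these Iigp1, an interferon-induced GTPase, was higher at 0.91 (0.51 to 1.36), and Lcn2 and Hspb1 were lower at -1.31 (-1.96 to -0.78) and -0.80 (-1.43 to -0.26), each on at most 134 reads. Lcn2, with 93 and 35 reads, and Hspb1, with 74 and 40, reached the minimum of reads only in F1m-CON, where they were higher. Among 14 genes of glutamate and glutamine handling 0 were beyond 1.5-fold, and the median was 0.00036. There the cystine and glutamate exchanger Slc7a11 had 0.37 (0.25 to 0.49), and Slc1a1, the neuronal transporter, -0.04 (-0.10 to 0.02). Of 15 genes of glycolysis and lactate transport, 1 was lower, the lactate transporter Slc16a3 at -0.85 (-1.32 to -0.43) on 125 and 66 reads, and their median was -0.08.

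Markers of other cells differed between the same libraries. All 10 choroid plexus markers were below 0, with a median of -0.44 and 2 lower by 1.5-fold, Aqp1 and Kcnj13 (-0.71). Their summed level was 3019 CPM in F1m-CON and 2523 in F1m-GCS. Microglia markers had a median of -0.11 (10 of 12 below 0, summed 530.5 and 474 CPM) and oligodendrocyte markers -0.07 (9 of 12 below 0, 7457 and 7082 CPM). Vascular and meningeal lists lay on the other side, with medians of 0.07 for endothelial, 0.09 for mural and 0.13 for meningeal and fibroblast markers, and 8 of 10, 5 of 7 and 7 of 8 above 0. Neuron markers had a median of -0.02 and summed levels of 11252 and 11162 CPM. None of these markers was at 0 in the tissue. The summed level of the 10 astrocyte genes was 5890 CPM in F1m-CON and 5840 in F1m-GCS, and the part of cell composition in the astrocyte ratios was not tested.

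**Figure D3:**
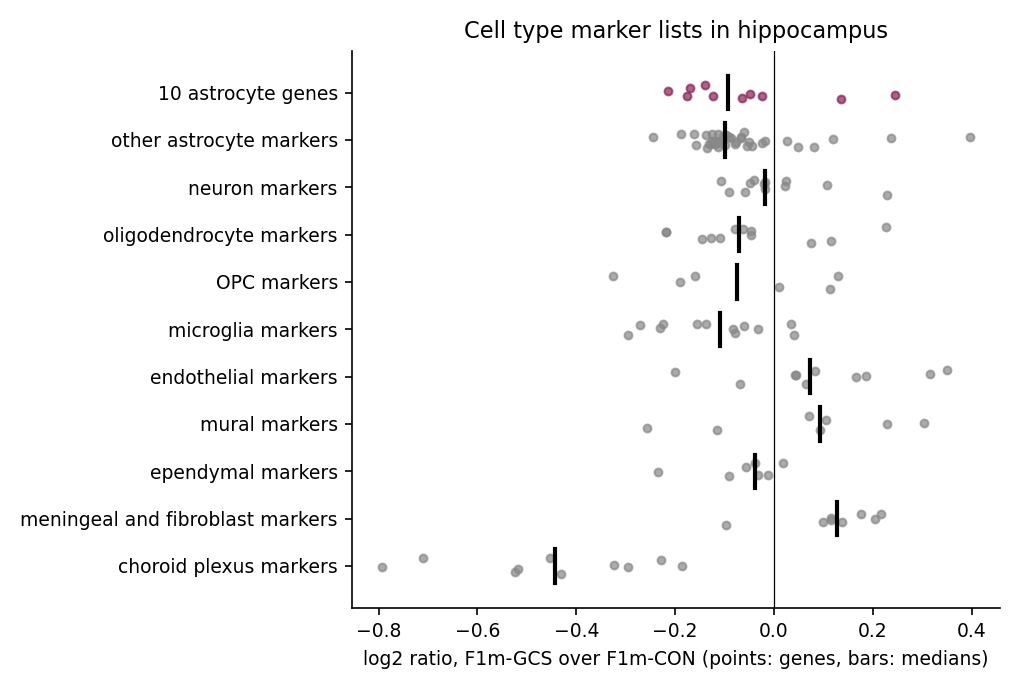
Log2 ratio of F1m-GCS over F1m-CON for the measured genes of each cell type list, 1 point per gene, with the list's median as a black bar. The 10 astrocyte genes and the 40 other astrocyte markers have medians of -0.09 and -0.10, choroid plexus markers the lowest at -0.44, and endothelial, mural and meningeal lists lie to the right of 0.

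Some of the astrocyte genes passed a limit of presence in both HT22 libraries and others did not. Of the 10, 6 had an RPKM of at least 1 in both HT22 libraries, the rule for presence, against 76.9% of the 13076 genes that passed the same limit in both hippocampus libraries. Present were Slc1a3, Gja1, Glul, Slc1a2, Sox9 and Aldoc. Below the limit in at least 1 library were S100b, Aqp4, Gfap and Gjb6. By the lower of the 2 HT22 values, the member just inside the limit was Aldoc, at 3.86, and the one just outside was S100b, at 0.999. In HT22-SUP S100b had 4.46, above the limit. Aqp4 had 0.450 in HT22-CON and 1.48 in HT22-SUP. By another rule, 6 of the 10 had a level in HT22 cells under 1/20 of that in the hippocampus, against 20.7% of the same 13076 genes. These were the 4 genes below the limit in at least 1 library, with Slc1a2 and Aldoc.

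The members with the highest level in HT22 cells relative to the tissue were Sox9, Gja1 and Slc1a3, and only Sox9 reached its tissue level. Sox9 had 809 reads in HT22-CON and 672 in HT22-SUP, an RPKM of 21.1 in both, above the 17.97 and 15.8 of the tissue libraries. Its CPM was 136% of the pooled hippocampus level in HT22-CON (interval 125 to 148) and 157% in HT22-SUP (144 to 171). Gja1 had an RPKM of 69.0 and 56.5, at 41.9% and 39.6% of the hippocampus CPM, and Slc1a3 had 80.0 and 57.5, at 24.4% and 20.2%. Glul stood at 31.3 and 28.7, at 5.02% and 5.31%. These 4 genes had between 672 and 3278 reads per HT22 library.

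The other 6 were low. Slc1a2 had 903 and 1554 reads, 2.12% and 5.06% of the hippocampus level, and Aldoc had 106 and 142 reads, 0.804% and 1.49%. Aqp4 had 11 reads in HT22-CON and 30 in HT22-SUP, S100b 7 and 26, Gfap 8 and 14, and Gjb6 1 and 12. Thus Gfap, a gene with 14824 and 13810 reads in the tissue, stood at 0.0938% and 0.228% of its tissue level. For comparison, 661 other genes with at least 50 CPM in the hippocampus and under 1/100 of that in HT22 cells had a pooled level of 0.346% of the hippocampus in HT22-CON and 0.830% in HT22-SUP. Gfap lay at 0.271 and 0.274 times these pooled levels, Aqp4 at 0.914 and 1.44 times, S100b at 0.921 and 1.98 times, Gjb6 at 0.289 and 2.01 times, Aldoc at 2.33 and 1.80 times and Slc1a2 at 6.13 and 6.10 times. Because the 661 genes were chosen for a low HT22 level, any gene above 1% of its tissue level exceeds these pooled levels by that choice. Differences between the cultures in these multiples were not tested, and those of Gfap, Aqp4, S100b and Gjb6 rest on 1 to 30 reads.

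**Figure D4:**
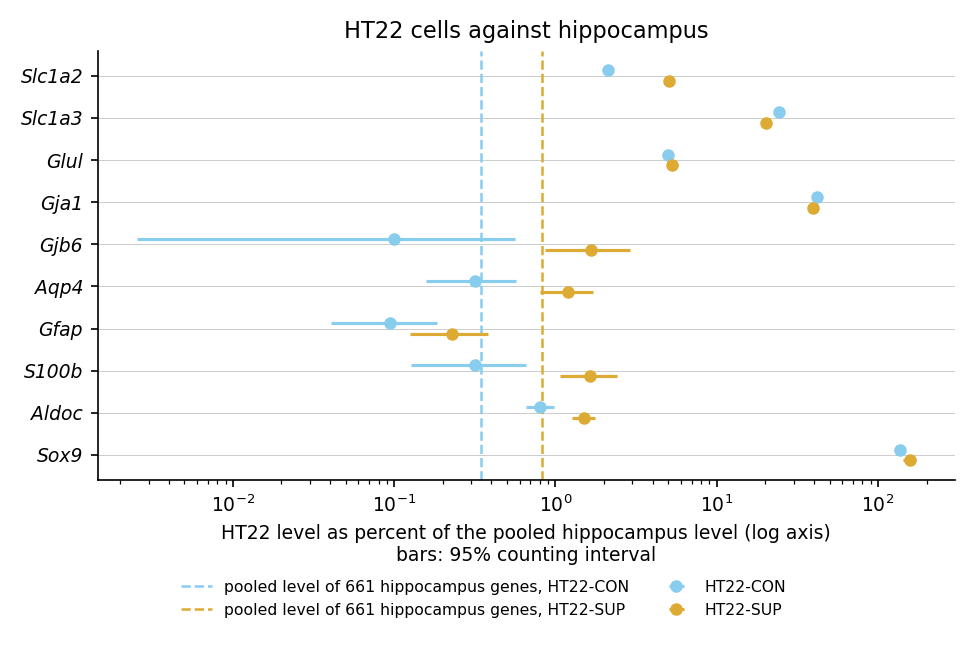
Level (CPM) of each astrocyte gene in HT22-CON and HT22-SUP as a percent of its pooled hippocampus level (log axis), with 95% counting intervals; dashed lines mark the pooled level of 661 other genes that are high in hippocampus and low in HT22 cells, 0.346% in HT22-CON and 0.830% in HT22-SUP. Sox9, Gja1, Slc1a3 and Glul lie far to the right of both lines, and Gfap lies to the left of the line of the same culture.

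Within families, the partner that led in HT22 cells was not always the one that led in the tissue. The RPKM of Slc1a2 over that of Slc1a3 was 2.81 and 3.23 in the tissue but 0.262 in HT22-CON and 0.753 in HT22-SUP. Per kilobase of the longest transcript, in CPM, the 2 genes were closer in the tissue. There Slc1a2 had 192 and 209.6, and Slc1a3 181 and 172. In HT22-CON Slc1a2 had 4.25 and Slc1a3 43.0, and in HT22-SUP 10.2 and 35.7. The neuronal transporter gene Slc1a1, at 72.0 and 69.0 in the tissue, had 10 and 5 reads in HT22 cells. Gja1 over Gjb6 was 3.06 and 3.49 in the tissue, against 1991 to 1 and 1358 to 12 reads in the HT22 libraries. Aldoa had an RPKM of 547 and 447 in HT22 cells, against 3.86 and 6.22 for Aldoc, whereas in the tissue the paralogues were near each other, with Aldoc at 0.876 and 0.799 of Aldoa. Vim had 35743 and 24577 reads against 8 and 14 of Gfap, and in the tissue Gfap was 8.69 and 9.88 times Vim per kilobase. Sox8 had 2 and 1 reads and Sox10 6 and 1 in HT22 cells, while both exceeded Sox9 per kilobase in the tissue, with an RPKM between 29.9 and 33.8.

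CpG dinucleotides are the sites at which vertebrate DNA is methylated, and the title of the series names epigenetic regulation. Promoter sequences of members on either side of the limit of presence in HT22 cells are printed here with their CpGs marked. They are the 250 bases before the start site in RefSeq, GRCm38.p6, 5′ to 3′ on the gene's strand, with each CpG in capitals. Gfap and Gjb6 were below the limit of presence in HT22 cells, and Slc1a3 and Gja1 were above it.
Gfap, chr11:102897201-102897450, minus strand: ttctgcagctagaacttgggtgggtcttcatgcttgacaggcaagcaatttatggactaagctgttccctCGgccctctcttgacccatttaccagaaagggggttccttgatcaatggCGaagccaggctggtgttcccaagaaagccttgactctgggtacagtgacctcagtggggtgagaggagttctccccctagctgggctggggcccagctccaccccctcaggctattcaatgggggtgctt
Gjb6, chr14:57133612-57133861, minus strand: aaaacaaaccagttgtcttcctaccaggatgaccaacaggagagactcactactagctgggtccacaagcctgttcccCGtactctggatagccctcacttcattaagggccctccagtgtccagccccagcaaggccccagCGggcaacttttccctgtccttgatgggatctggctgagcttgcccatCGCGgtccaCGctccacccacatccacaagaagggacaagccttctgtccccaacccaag
Slc1a3, chr15:8710808-8711057, minus strand: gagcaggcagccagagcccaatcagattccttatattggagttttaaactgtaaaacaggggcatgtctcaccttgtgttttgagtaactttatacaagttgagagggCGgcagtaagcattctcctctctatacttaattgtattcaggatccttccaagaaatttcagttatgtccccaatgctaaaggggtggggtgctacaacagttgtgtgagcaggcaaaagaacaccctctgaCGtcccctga
Gja1, chr10:56377050-56377299, plus strand: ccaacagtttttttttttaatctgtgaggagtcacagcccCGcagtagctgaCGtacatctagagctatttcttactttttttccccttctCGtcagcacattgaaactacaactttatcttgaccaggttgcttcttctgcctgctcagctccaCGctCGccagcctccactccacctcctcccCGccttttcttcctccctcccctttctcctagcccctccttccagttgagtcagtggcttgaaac
Windows of 300 bases, from 250 before to 50 after the start, were found for 8 of the 10 members, 9 windows in all. They held 3 CpGs for Gfap, 6 for Gjb6, 3 for Slc1a3 and 8 for Gja1. The number was 17 for Glul, 3 for S100b, 8 and 3 for the 2 windows of Aldoc and 1 for Slc1a2, whose listed start lies 47779 bases inside the gene as the files give it. The Gfap window lies 3712 bases inside its gene in the same way. Over 32851 RefSeq promoters of the same length the median was 7 CpGs, with quartiles of 3 and 20. The range of the members below the limit of presence (3 to 6) lay within that of the present ones (1 to 17), so this count did not separate them. The letters TTCNNNGAA, bound by STAT factors, occurred in the windows of Gfap, Slc1a3 and 1 of Aldoc, and in 8.30% of all promoters, with both strands searched. A palindromic form of the glucocorticoid receptor motif was in none of the 9 windows and in 0.475% of all promoters. TATAAA was in the Slc1a3 window and in 13.6% of promoters, CCAAT in those of Glul, S100b and Slc1a3 and in 37.4%, and TGANTCA, an AP-1 form, in that of Gja1 and in 7.81%. Aqp4 and Sox9 had no entry matched.

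Choline at 70 µM went with higher counts of the low members and with small differences of the others. Slc1a2 had an RPKM of 20.9 in HT22-CON and 43.3 in HT22-SUP, from 903 and 1554 reads. Its log2 ratio of HT22-SUP over HT22-CON was 1.27 (1.15 to 1.39), at percentile 98.7 of the 10854 measured genes. Aldoc, on 106 and 142 reads, had 0.89 (0.53 to 1.28). These 2 of the 6 measured members were higher by 1.5-fold, against 5.13% of measured genes, and 0 of 6 were lower, against 2.89%. The pooled log2 ratio of the 661 low-level hippocampus genes was 1.27 (1.24 to 1.31). Slc1a2, at 3.35% of its tissue level with libraries pooled, lies outside that class. The 392 other genes between 1% and 5% had a pooled ratio of 0.78 (0.75 to 0.80). Whether the reads of Slc1a2 and of these genes share a source was not tested.

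Among the 4 members at 5% of the tissue level or more in both cultures, Slc1a3 was lower, with 3278 and 1960 reads from libraries of unequal depth and a log2 ratio of -0.26 (-0.34 to -0.18). Sox9 was higher by 0.22 (0.07 to 0.37). The intervals of Gja1, -0.07 (-0.17 to 0.03), and of Glul, 0.09 (-0.05 to 0.24), held 0. In all, the interval lay above 0 for 3 of 6, against 22.4% of measured genes, and below 0 for 1 of 6, against 32.7%. Of the 6 ratios 4 lay above 0, against 41.9%, and 2 below 0, against 58.1%. Their median was 0.15, against -0.05 over all measured genes. After correction for coding length and GC, Slc1a3 had -0.13 (-0.21 to -0.05), Glul 0.24 (0.09 to 0.38) and Sox9 0.34 (0.19 to 0.49).

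The 4 members under 50 reads in both HT22 libraries are described by their sums. Together they had 27 reads in HT22-CON and 82 in HT22-SUP, a log2 ratio of 2.00 (1.44 to 2.77). Each of the 4 had more reads in HT22-SUP although that library was smaller, and the interval of Gfap, -0.06 to 2.75, held 0. Gjb6, with 1 read in HT22-CON, had an interval of 1.31 to 9.49. These ratios rest on few reads.

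The ratio in HT22 cells went with how far a gene lay below its tissue level. Among non-members with at least 50 CPM in hippocampus, and with no minimum of reads, the 661 genes under 1% of the tissue level had a median log2 ratio of 1.11, and the 392 genes between 1% and 5% had 0.92. The summed reads of these classes had ratios of 1.27 (1.24 to 1.31) and 0.78 (0.75 to 0.80). From 5% to 20% the median was 0.03 over 357 genes, from 20% to 100% it was -0.05 over 1784 genes, and above that -0.02 over 1821 genes. The values without a minimum were computed after the data were seen, because 53 of the 90 measured genes of the lowest class reached 50 reads only in HT22-SUP. Slc1a2 and Aldoc belong to the class from 1% to 5%, Glul to that from 5% to 20%, Slc1a3 and Gja1 to that from 20% to 100%, and Sox9 to that above it. Of the 40 other astrocyte markers 31 were under 1/20 of the tissue level, and 17 had an RPKM of at least 1 in both cultures. The shares were 20.7% and 76.9% of the 13076 genes at an RPKM of at least 1 in both hippocampus libraries. Of the 17 measured, 7 were higher by 1.5-fold and 0 lower, against 5.13% and 2.89% of all measured genes. Of the 15 with at least 50 reads in HT22-CON, 5 were higher. Atp1b2, at 1.95 (1.36 to 2.78) on 24 and 71 reads, and Mt3, at 1.72 (1.10 to 2.58) on 23 and 58, reached the minimum only in HT22-SUP. The 23 markers under the minimum had 180 reads together in HT22-CON and 286 in HT22-SUP. F3, the tissue factor gene, and Ppap2b, a lipid phosphatase gene, had 2040 and 1840 reads in HT22-CON and ratios of -0.53 (-0.64 to -0.42) and -0.46 (-0.57 to -0.34). Of 12 neuron markers 9 were measured, with a median of 1.41 and summed levels of 97.4 and 218 CPM, none at 0. Of these 8 were higher by 1.5-fold, against 5.13% of all measured genes, and 3 of the 8 were over the minimum only in HT22-SUP. Tubb3, a neuronal tubulin gene, was lower at -0.62 (-0.92 to -0.34). Of 12 oligodendrocyte markers 2 were measured and both were higher by 1.5-fold, against the same 5.13% (11.3 and 24.3 CPM, with 1 and 3 at 0). All 3 measured microglia markers of 12 lay below 0, as did 5 of 6 measured meningeal and fibroblast markers, against 58.1% of all measured genes. Of the latter 6, 2 were lower and 1 higher by 1.5-fold, against 2.89% and 5.13% of all measured genes. Igf2, with 56 and 22 reads, was 1 of the 2 lower and reached the minimum only in HT22-CON, where it was higher. The part of these marker lists in the astrocyte ratios was not tested.

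**Figure D5:**
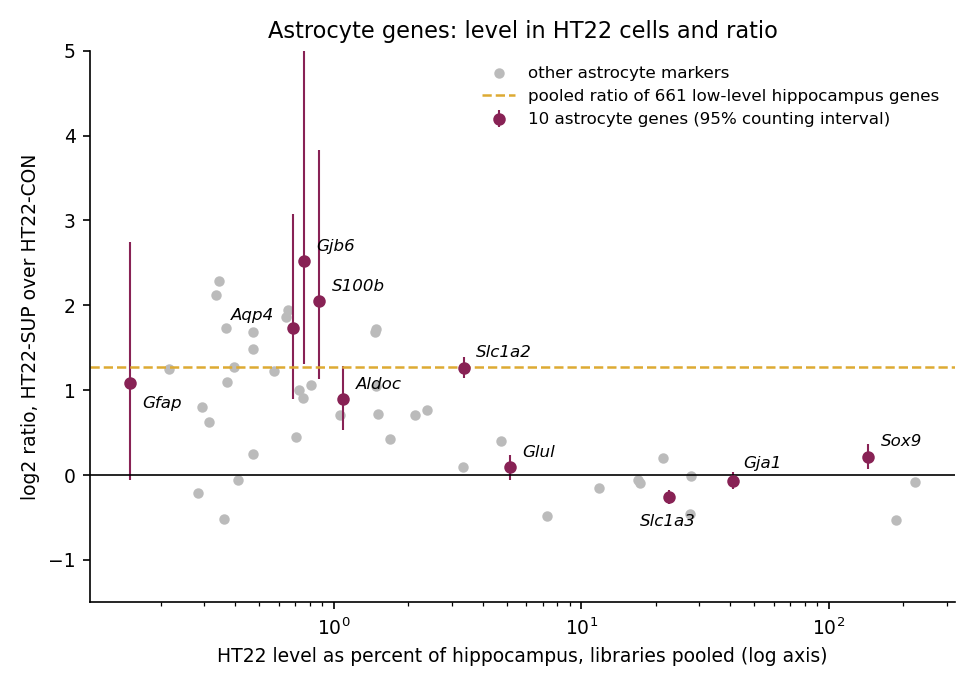
Log2 ratio of HT22-SUP over HT22-CON against the HT22 level as a percent of hippocampus (log axis, libraries pooled) for the 10 astrocyte genes (dark points, 95% counting intervals) and 40 other astrocyte markers (grey); the dashed line is the pooled ratio of 661 low-level hippocampus genes, 1.27. The 6 members under 5% lie between 0.89 and 2.52 and the 4 above it between -0.26 and 0.22; the upper interval limit of Gjb6, 9.49, is beyond the axis.

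In lists tied to the members' roles, HT22 cells expressed different genes. Of 14 genes of glutamate and glutamine handling 10 were measured, 0 beyond 1.5-fold, with a median of -0.20, and Slc1a4, a neutral amino acid transporter gene, had -0.27 (-0.42 to -0.13). Among 16 glial transcription factor genes 8 were measured. Nfix was present at an RPKM of 62.9 and 80.4 with 0.57 (0.49 to 0.65), Zbtb20 was higher at 0.69 (0.55 to 0.84) and Id4 lower at -1.04 (-1.78 to -0.42), while Sox2 had 1 and 4 reads and Hes5 0 and 1. Id4, with 77 and 26 reads, reached the minimum of reads only in HT22-CON, where it was higher. Reactive astrocyte genes had a median of -0.20 over 28 measured. Of these 4 were lower by 1.5-fold and 0 higher, against 2.89% and 5.13% of all measured genes. Among the 4 were Aspg at -1.32 (-2.16 to -0.68), Cxcl10 at -1.18 (-1.85 to -0.63) and Gbp2 at -0.73 (-0.98 to -0.49). Aspg, with 77 and 21 reads, and Cxcl10, with 101 and 31, reached the minimum only in HT22-CON, where they were higher.

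The authors' deposited table for the hippocampus lists 6 of the 10 genes with a false discovery rate below 0.05, against 14.2% of the 22328 genes. In the authors' deposited table for HT22 cells these are 2 of 10, Slc1a2 and Slc1a3, against 9.55%. In the authors' deposited table the log2 fold change of Slc1a2 in HT22 cells is 0.56 and that of Slc1a3 -0.15. Over 10854 genes the deposited HT22 values differed by a median of 0.017 from the ratio of SUP to the sum of both columns, and by 0.076 from the ratio of SUP to CON. The deposited false discovery rates come from 1 library a group and are given here as deposited, with no support drawn from them.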

How the data were processed

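Trim Galore, TopHat2 (mm10) and HTSeq made the tables from the reads, per the series' design text. CASAVA 1.8 is named in the submitters' processing notes, and the sources used here do not give other versions or the annotation. Read counts per gene were deposited as raw counts, per the file headers. RPKM values were computed by the authors from a gene length and uniquely mapped reads, per the file headers. The headers do not name the kind of length. It is taken here as a coding length because it is a multiple of 3 for 99.8% of 21932 protein-coding genes. Recomputing RPKM from the counts gave the deposited values. Log2 fold changes, p-values and false discovery rates are the authors' deposited edgeR output.

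From the counts, log2 ratios used TMM scaling (edgeR 4.0.16, R 4.3.3) and a prior count of 2, with exact Clopper-Pearson intervals at 95% (scipy 1.17.1, Python 3.11.15). With 1 library a group no test of conditions was possible. A gene counted as measured with at least 50 reads in 1 of 2 libraries, and as higher or lower at 1.5-fold with an interval that excludes 0. Corrections subtract the median ratio of genes of like length (10 groups) and GC content (5 groups) (GENCODE M21, 21096 genes matched). Functions were tested on simulated counts. The 10 genes and the 20 other lists were chosen with earlier results of these data known. Genes named are all members, 8 paralogues, and up to 3 genes per list (6 for other astrocyte markers) with ratios farthest from 0. Apoe, F3, Ppap2b, Sox2 and Tubb3 fall outside that rule and were named after their values were seen. Plpp3 was read as Ppap2b, and Zbtb20, with 2 entries, by its longer one. Alternatives were total counts, size factors of DESeq2 1.42.0, other prior counts (0.25, 10), other read minimums (10, 200, none), the 2 length corrections and other limits of presence.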

Additional observations from a re-analysis of the deposited data

Results flagged for a closer look

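For 4 of the 10 genes the counting intervals of both comparisons excluded 0 on opposite sides; each comparison has 1 library a group, the treatments differ (diet of the dam, choline in the medium), and the difference between them was not tested. Of the 10234 genes measured in both comparisons 8.87% had such intervals, and so did 2 of the 6 members measured in both, Aldoc and Sox9. Aldoc had a log2 ratio of -0.18 in hippocampus (F1m-GCS over F1m-CON) and 0.89 in HT22 cells (HT22-SUP over HT22-CON). S100b and Gjb6 were under the minimum of 50 reads in HT22 cells: S100b had -0.12 and 2.05, on 7 and 26 reads, and Gjb6 -0.21 and 2.52, on 1 and 12 reads. The hippocampus interval of S100b held 0 after either length and GC correction. Sox9, the 1 of the 4 that HT22 cells held above tissue level, had -0.17 and 0.22.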

How the results depend on the processing

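No paired analysis was possible because each group held 1 library. In the hippocampus the median log2 ratio of the 10 genes was -0.042 after the correction for coding length and GC, against -0.09 without it, and Slc1a2 went from 0.14 to -0.0016 with transcript length and GC, an alternative chosen after seeing the data. In HT22 cells, with at least 10 reads or no minimum, 10 members were measured, their median was 0.99 and 5 were higher by 1.5-fold. Of these 5, Aqp4, S100b and Gjb6 had between 1 and 30 reads per HT22 library. With no minimum, the 661 non-members under 1% of their tissue level had a median of 1.11. With at least 200 reads 1 member was higher. Shares of all genes at these other minimums are not given here, so the counts of members have no background to be read against. After either length and GC correction 1 of 6 HT22 ratios was below 0 in place of 2, since Gja1 had 0.08 and 0.10. Presence in HT22 cells held for 7 genes at an RPKM of 0.5 and for 5 at 5, and the shares of all genes at these limits are not given here. Of the summary values recomputed, 84 stayed within 1.5 times a count or within the members' typical interval of a median, and 10 did not, as given above. Of the single genes, 128 values stayed inside the first counting interval, 1 reversed (Slc1a2, above) and 14 left it, all under a length and GC correction: among them S100b in hippocampus (-0.01 with coding length) and Slc1a2 in HT22 cells (1.00 with transcript length). Depth limits Gfap, Gjb6, S100b and Aqp4 in HT22 cells, with 1 to 30 reads each.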

Other observations

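The neural stem cells of the dentate gyrus share Gfap, Slc1a3 and Sox9 with astrocytes. Genes of these stem cells and of the young neurons there were measured in both tissue libraries. Of 16 such genes 10 lay below 0 and 0 were beyond 1.5-fold, with a median log2 ratio of -0.08. Eomes, a factor of intermediate progenitors, had 122 reads in F1m-CON and 78 in F1m-GCS and a ratio of -0.58 (-1.02 to -0.17). Dcx, a marker of young neurons, had 774 and 1077 reads and 0.53 (0.40 to 0.67).

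The S100 family of HT22 cells differed from that of the tissue. S100a11 had an RPKM of 615 in HT22-CON and 682 in HT22-SUP, with a log2 ratio of 0.37 (0.31 to 0.43), and S100a3 had 43.6 and 24.7, with -0.59 (-0.88 to -0.32). In the hippocampus S100a6 had 413 and 300 reads and a ratio of -0.40 (-0.63 to -0.19).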
